A study of Mus musculus with 12 samples.

Results

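Kidneys of C57BL/6 mice were profiled by bulk RNA-seq, and 47 genes of the Wnt pathway are described here: every Wnt ligand, Frizzled receptor, secreted Frizzled-related protein (Sfrp) and Dickkopf (Dkk) symbol in the files, with Frzb, Wif1, Axin2, Lef1, Lgr4, Lgr5, Rnf43, Znrf3 and Ror2. They were matched by symbol among the 40213 in the files, and 38 of them are among the 17841 genes with enough counts to be tested. The design has 3 groups of 4 libraries. Controls received saline by intraperitoneal injection and an ordinary diet. The chronic kidney disease (CKD) group received the same injection and a diet labelled 2% adenine, a purine base that forms crystals in the tubules. The colchicine group received adenine in the diet and colchicine, an alkaloid that binds tubulin, at 0.3 mg/kg/day by intraperitoneal injection. The labels give 2, 3, 4 and 5% adenine for colchicine replicates 1, 2, 3 and 4, while the design text describes a single adenine model, so the labelled dose and colchicine cannot be told apart in replicates 2, 3 and 4. The titles call the colchicine libraries biological replicates and the others replicates. No label ties a library to a named animal or gives sex or age, so the p-values reflect only how far these libraries vary.

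Wnt ligands are lipid-modified secreted proteins that bind Frizzled receptors together with the co-receptors Lrp5 and Lrp6. In the canonical branch the signal stabilises beta-catenin, which enters the nucleus and acts with TCF and LEF factors at target genes such as Axin2, itself a negative regulator that is widely used as a readout. Other ligands, receptors and Ror2 act through beta-catenin-independent branches. Secreted Frizzled-related proteins, Frzb and Wif1 bind the ligands, and several Dickkopf proteins bind the co-receptors. In the developing kidney Wnt9b from the ureteric bud and Wnt4 in the mesenchyme drive nephron formation, and Wnt genes are known to be expressed again in injured and fibrotic kidneys.

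Library totals ranged from 22200909 to 38253100 counts. Mitochondrially encoded transcripts took 41.5 to 46.7% of the counts in control, 16.7 to 17.3% in CKD and 14.6 to 21.8% with colchicine. Levels below are CPM, the counts of a gene in every 1000000 counts of its library, after TMM scaling. TMM gives each library a factor chosen on the assumption that most genes do not differ between libraries. The word "called" means that the adjusted p was under 0.05. The tissue label was checked against marker genes: the 10 proximal tubule markers summed to 10231 to 11004 CPM in control, 937 to 1213 in CKD and 541 to 914 with colchicine, so kidney transcripts were present in every library. The 10 fibroblast markers summed to 423 to 508, 3364 to 3981 and 4174 to 5330 CPM in the same order. In bulk tissue, fewer cells of a type and less RNA per cell cannot be told apart, and the part of cell composition in the results below was not tested.

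Promoters are shown for the genes on which the results turn and for those that carry the TCF/LEF core, the short sequence bound by the factors at the end of the canonical branch. RefSeq windows (build GRCm38.p6, 250 bases before to 50 after each start) were found for 32 of the 47 members, as 39 windows. They were searched on both strands for CTTTGAT and CTTTGAA, which do not overlap each other. Of 32851 windows of all genes 3.73% held CTTTGAT, 5.14% CTTTGAA and 8.65% either of them, and 3 of the 39 member windows (7.69%) did. These were Wnt11, Wnt5b and Dkk1, shown on the gene's own strand with the match in capitals (in Wnt11 the match lies on the opposite strand, so the capitals are its reverse complement). The matches began 51, 71 and 117 bases before the start, respectively. Wnt11 and Wnt5b also had windows at other starts, and those held no match. A match is a run of letters and not a shown binding site.
Wnt11, chr7:98835021-98835107, plus strand: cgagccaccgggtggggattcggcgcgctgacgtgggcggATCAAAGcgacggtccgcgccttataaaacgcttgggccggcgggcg
Wnt5b, chr6:119449411-119449497, minus strand: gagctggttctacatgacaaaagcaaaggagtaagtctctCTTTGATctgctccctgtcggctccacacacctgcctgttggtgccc
Dkk1, chr19:30549567-30549653, minus strand: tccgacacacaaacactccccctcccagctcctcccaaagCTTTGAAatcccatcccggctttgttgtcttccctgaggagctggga
The 250 bases before the start of Wnt4, the ligand with the largest difference between the colchicine and CKD groups, and of the readout gene Axin2 held no match in this window.
Wnt4, chr4:137277385-137277634, plus strand: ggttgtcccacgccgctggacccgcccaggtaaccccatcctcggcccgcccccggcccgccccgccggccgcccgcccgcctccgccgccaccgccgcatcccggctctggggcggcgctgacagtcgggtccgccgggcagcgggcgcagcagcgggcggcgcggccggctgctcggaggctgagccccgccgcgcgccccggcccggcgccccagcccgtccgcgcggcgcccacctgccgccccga
Axin2, chr11:108920099-108920348, plus strand: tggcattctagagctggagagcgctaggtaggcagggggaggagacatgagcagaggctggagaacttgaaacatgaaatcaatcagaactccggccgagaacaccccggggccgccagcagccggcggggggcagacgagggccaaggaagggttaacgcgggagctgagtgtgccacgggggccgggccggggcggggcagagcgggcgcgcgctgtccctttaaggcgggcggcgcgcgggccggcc

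Among the 19 ligand genes, 14 were tested. Wnt1 and Wnt2b were near the detection limit, with 9, 19 and 24 counts for Wnt1 and 7, 40 and 39 for Wnt2b summed over the 4 libraries of control, CKD and colchicine. Wnt3, Wnt3a and Wnt8a had no count in control and at most 4 in any group. A count of 0 over a group allows up to 3 counts, which is 0.0437 CPM in control, 0.0241 in CKD and 0.0190 with colchicine, counting error only. Among the antagonists Dkk1 had 4, 14 and 14 counts and Dkk4 0, 0 and 1. Fzd9 had 15, 34 and 38 counts. Fzd10os, a transcript on the opposite strand at the Fzd10 locus, had 6, 11 and 19. Whether the counting used strand is not stated in the sources, so reads of Fzd10 and Fzd10os cannot be told apart.

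Levels of different ligands were compared per kilobase of exon. In control the 4 most abundant ligands were Wnt5a (3.59 ± 0.393 CPM per kb, SD, n = 4), Wnt4 (3.44 ± 0.775), Wnt7b (3.00 ± 0.587) and Wnt9b (2.52 ± 0.262), and neighbours in this order overlapped between libraries. In CKD the order was Wnt4 (7.53 ± 0.770), Wnt5a (5.66 ± 0.779), Wnt7b (3.72 ± 0.497) and Wnt10a (2.22 ± 0.153). The lowest Wnt4 library there, at 6.42 CPM per kb, stood just above the highest Wnt5a library, at 6.33. With colchicine Wnt4 stood apart at 18.7 ± 3.29, its lowest library at 14.4, above Wnt5a at 6.56 ± 0.741 and Wnt7b at 5.50 ± 1.51, whose libraries overlapped. Wnt2 followed at 3.09 ± 0.429. The Wnt4 share of all ligand transcripts per length was 21.8 ± 4.48% in control, 27.3 ± 2.24% in CKD and 40.9 ± 6.26% with colchicine. Exon lengths came from a GRCm38 annotation, while the counts used GRCm39.

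**Figure D1:**
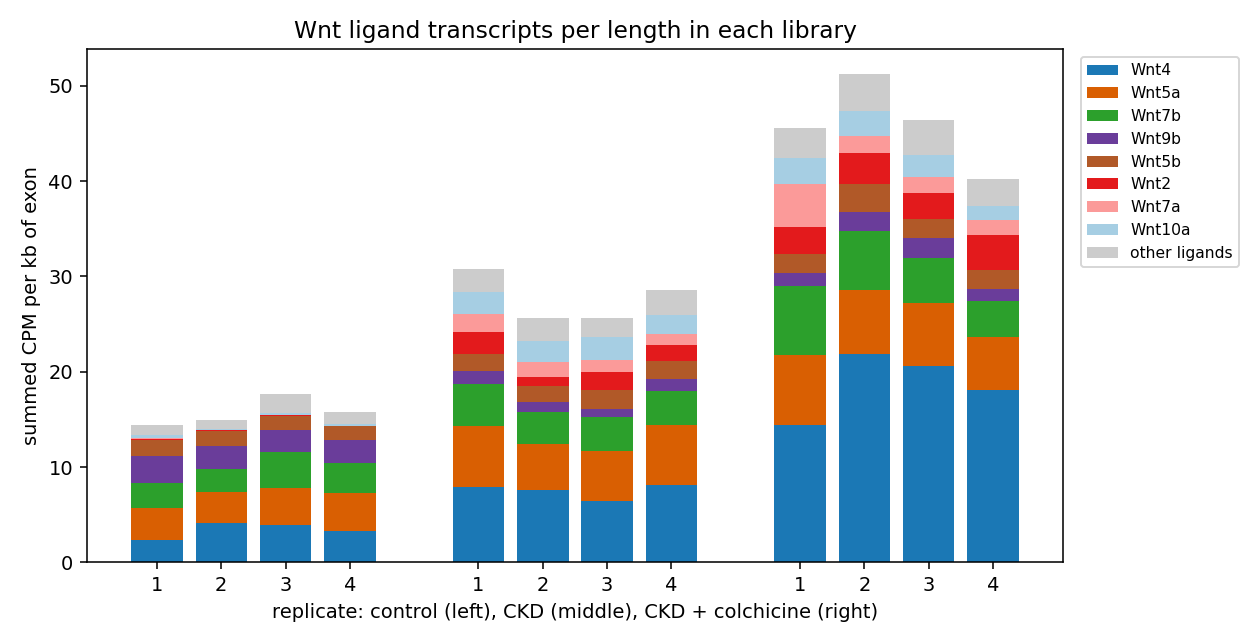
Summed Wnt ligand transcripts (vertical axis, CPM per kb of exon) in each of the 12 libraries (horizontal axis, replicates within group), coloured by ligand, with the less abundant ligands pooled in grey. The Wnt4 segment spans 2.39 to 4.12 CPM per kb in control, 6.42 to 8.15 in CKD and 14.4 to 21.9 with colchicine.

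The first contrast, CKD against control, addresses the effect of the adenine diet on the pathway. Most of the tested members rose: 23 of 38 were called higher and 5 lower by edgeR's quasi-likelihood test, and 10 were not called. Of all genes tested 67.4% were called, 34.1% higher and 33.4% lower, so the share of members called was near that of all genes and its split leaned to higher calls. In 23 members every CKD library lay above every control library and in 4 below, against 33.2% and 33.0% of all genes. The median log2 fold change of the members was 0.68, against 0.04 for all genes. Scaled by library totals only, 34 members were called higher and 0 lower, and by upper-quartile factors 27 and 3. Over all genes the split was 6076 higher and 5952 lower with TMM, 13197 and 1850 with library totals, and 7118 and 5092 with upper-quartile factors. The median of all genes moved to 1.05 and 0.17 under the last pair of scalings. With library totals the log2 values of the 5 members called lower under TMM were 0.67 for Fzd5, 0.31 for Lgr4, 0.06 for Sfrp2, -0.04 for Wif1 and -0.12 for Wnt9b. The count of lower calls was 3 without control replicate 3, without control replicate 4 or without CKD replicate 1.

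**Figure D2:**
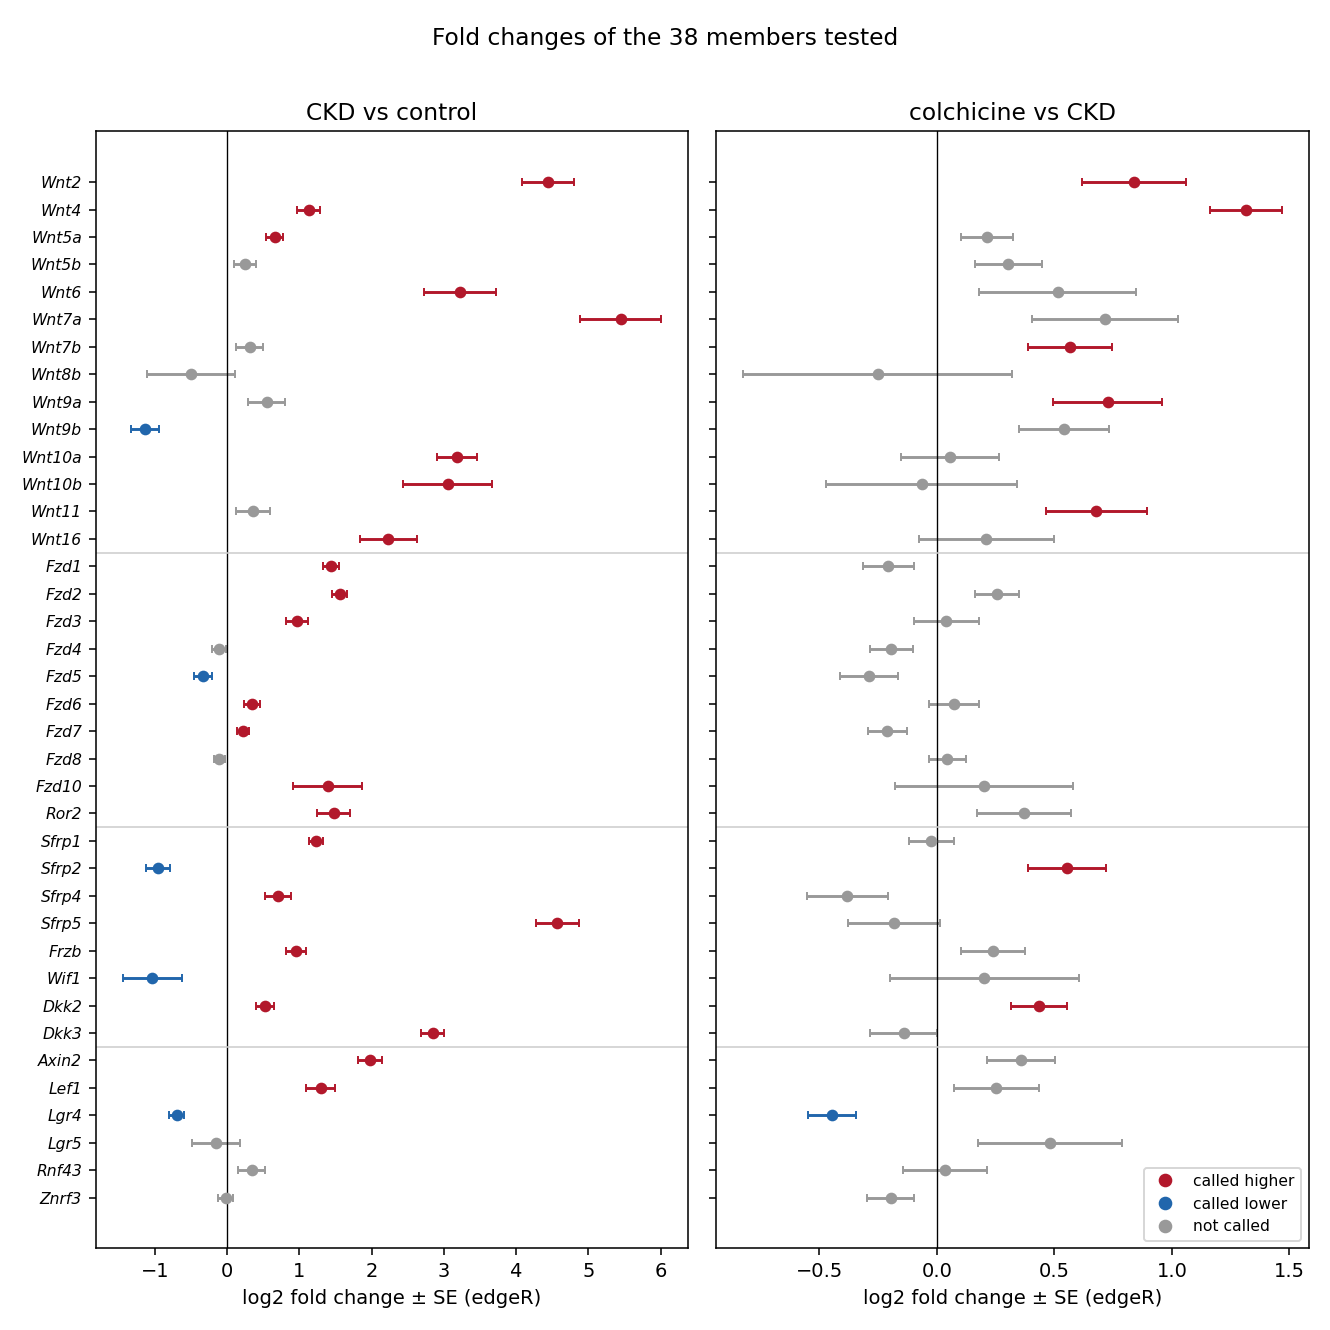
Log2 fold change (horizontal axis, point, with its standard error as the bar) of the 38 tested members in CKD against control (left) and colchicine against CKD (right), grouped as ligands, receptors, antagonists, and readouts with turnover factors. Red points were called higher and blue lower: 23 and 5 on the left, 7 and 1 on the right under TMM scaling (with library totals only, 34 and 0 on the left and 4 and 1 on the right).

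Of the 14 ligands tested, 8 rose in CKD and 1 fell, against 34.1% higher and 33.4% lower over all genes. The share of ligands called was near the 67.4% called over all genes. The largest rises were in ligands that were almost silent in control. Wnt7a, Wnt2, Wnt10a, Wnt6, Wnt10b and Wnt16 had too few control counts to pass the low-count filter without the adenine groups. The same holds for Sfrp5 and Fzd10. Genes so scarce in control could be tested only where another group was higher, so a rise was built into their selection. They are included in the higher calls and the median of the members given above. Wnt7a, a ligand known from epithelia, was at 0.233, 0.0509, 0.0685 and 0.0580 CPM in the 4 control libraries, 6.01, 4.74, 4.17 and 3.68 in CKD and 14.3, 5.56, 5.34 and 5.25 with colchicine. The adenine groups stood clear of control, and colchicine replicate 1 stood above every other library. Its log2 fold change in CKD was 5.45 ± 0.563 (SE, adjusted p = 7.61e-07), which rested on 7 control counts and was 6.22 without control replicate 1. Wnt2, a ligand known from mesenchyme, was at 0.233, 0.153, 0.274 and 0.0580 CPM in control and 5.24, 2.24, 4.26 and 3.83 in CKD, a log2 fold change of 4.44 ± 0.363 (adjusted p = 3.21e-08). Its colchicine libraries, at 6.52, 7.28, 5.94 and 8.17 CPM, all lay above the CKD libraries.

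Wnt10a was at 0.991, 0.357, 0.548 and 0.522 CPM in control, 5.52, 5.59, 5.86 and 4.97 in CKD and 6.74, 6.62, 5.84 and 3.51 with colchicine, and rose 9.09-fold in CKD (log2 3.18 ± 0.279). Wnt6 was at 0, 0.153, 0.205 and 0.0580 CPM in control, 1.06, 1.25, 0.655 and 1.02 in CKD and 1.20, 1.51, 1.79 and 1.15 with colchicine, with a log2 fold change in CKD of 3.23 ± 0.502. For both, every control library lay below every library of the adenine groups, which overlapped each other. Wnt10b was at 0, 0, 0.137 and 0.174 CPM in control, 0.457, 0.748, 0.476 and 0.876 in CKD and 0.598, 0.706, 0.524 and 0.626 with colchicine. Its log2 fold change in CKD, 3.05 ± 0.620, rested on 5 control counts and was 3.89 without control replicate 4. Wnt16 was at 0.117, 0.102, 0.137 and 0.174 CPM in control, 0.528, 0.677, 0.714 and 0.613 in CKD and 0.543, 0.565, 0.987 and 0.835 with colchicine, 4.70-fold higher in CKD. The fitted folds of these low genes depend on the small prior count of the model.

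The 2 most abundant ligands of the control kidney rose less. Wnt4, which drives the mesenchyme-to-epithelium transition of the developing nephron, was at 10.03, 17.3, 16.4 and 14.0 CPM in control and 33.3, 32.0, 26.9 and 34.2 in CKD. The rise was 2.19-fold (log2 1.13 ± 0.162, adjusted p = 2.08e-05), with no overlap between groups. Wnt5a, the typical ligand of the beta-catenin-independent branch, was at 23.0, 22.7, 27.6 and 27.7 CPM in control, 44.5, 33.5, 36.9 and 44.3 in CKD and 51.5, 47.4, 46.5 and 39.0 with colchicine, and rose 1.58-fold in CKD (adjusted p = 1.02e-04).

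Wnt9b, the ureteric bud ligand, was the ligand that fell. It was at 13.1, 11.1, 10.5 and 10.7 CPM in control and 6.37, 4.88, 3.75 and 5.70 in CKD, a decrease of 2.20 times (log2 -1.14 ± 0.197, adjusted p = 1.08e-04), and with library totals only the log2 change was -0.12 and not called. The 10 collecting duct markers, of the segment that derives from the ureteric bud, summed to 637 to 844 CPM in control, 215 to 240 in CKD and 152 to 197 with colchicine. In CKD all 10 had negative log2 changes, and 9 of them were called lower. The part of that change in the level of Wnt9b was not tested. The remaining 5 ligands were not called, with log2 fold changes of 0.24 for Wnt5b, 0.32 for Wnt7b, 0.36 for Wnt11, 0.55 for Wnt9a and -0.50 for Wnt8b (0.48 with library totals only). Wnt9a was called without control replicate 3 (0.87, adjusted p = 0.00343) and without CKD replicate 3 (0.66, 0.0424), and also with DESeq2 (adjusted p = 0.0462) and upper-quartile scaling (0.0298). Wnt7b was called with the 8 compared libraries alone (0.0312) and with upper-quartile scaling (0.0352), and Wnt5b with the latter (0.0469). With library totals only, Wnt5b, Wnt7b, Wnt9a and Wnt11 were all called higher. Wnt8b lay between 0.102 and 0.616 CPM in every library and its groups overlapped in each comparison.

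**Figure D3:**
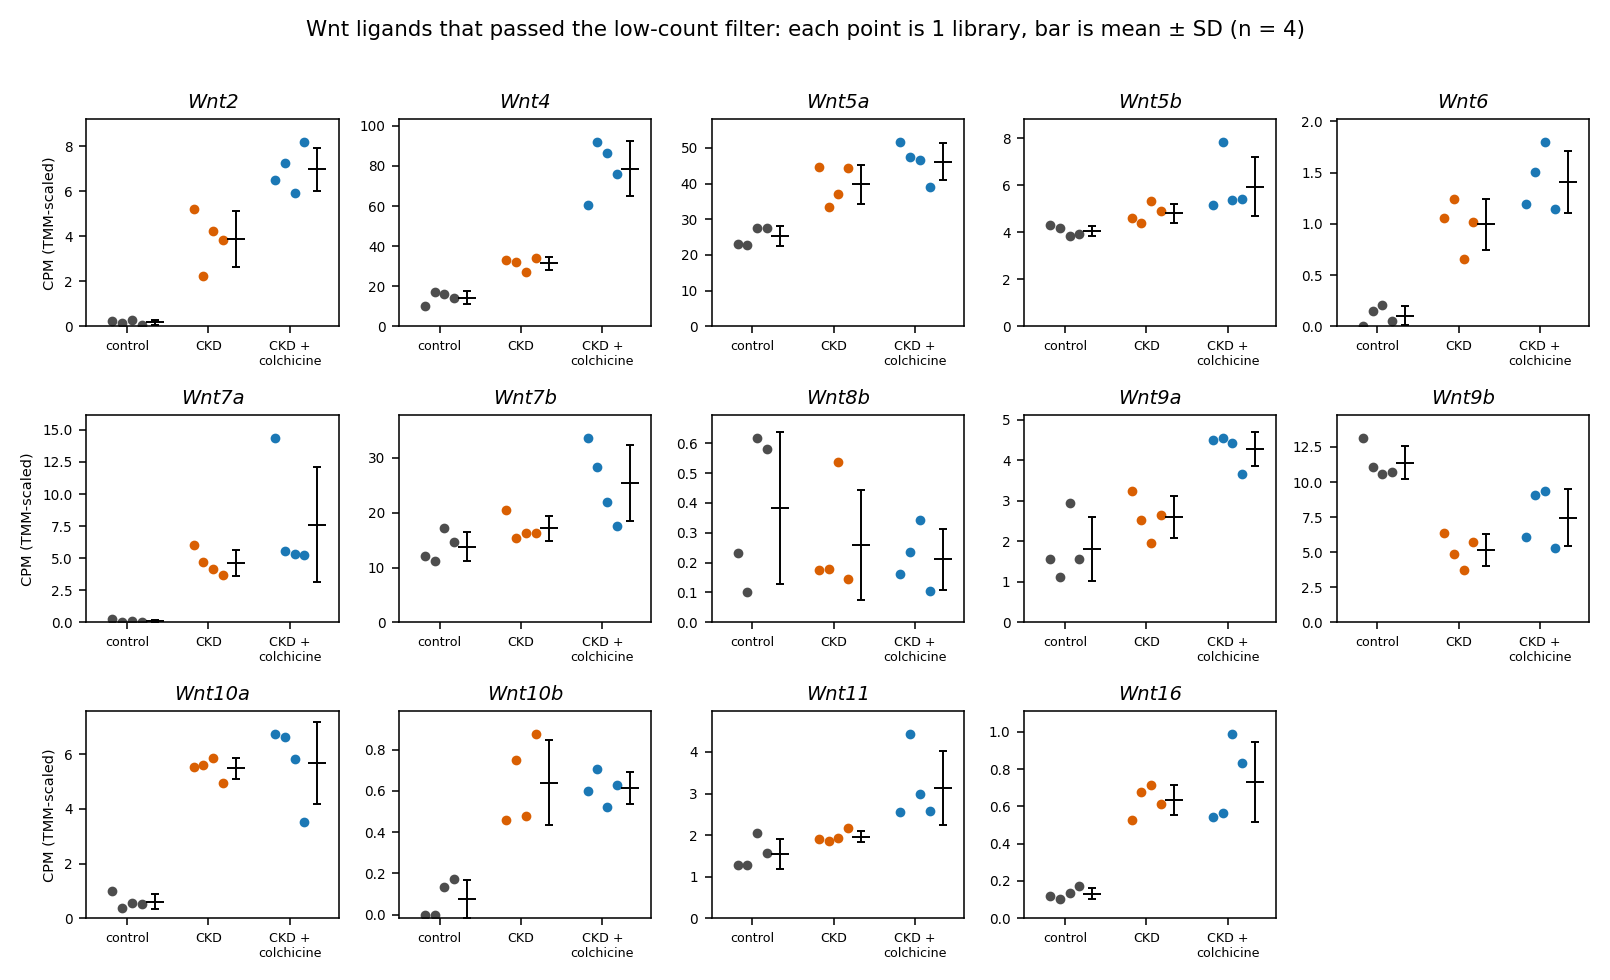
Level of the 14 tested Wnt ligands (vertical axis, TMM-scaled CPM, a scale per panel) in control, CKD and CKD with colchicine (horizontal axis), with 1 point per library and the mean ± SD beside it. Wnt4 steps from 14.4 to 31.6 and 78.6 CPM between the group means, and Wnt7a has 1 colchicine library, at 14.3 CPM, far above the other 3.

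Of the 9 Frizzled receptors tested, 6 rose in CKD, 1 fell and 2 were not called, against 34.1% higher and 33.4% lower over all genes. The summed level of the Frizzled receptors went from 217.5 to 228 CPM in control to 312 to 339.9 in CKD. Fzd1 made up most of that gain. It was at 58.6, 69.4, 49.7 and 50.6 CPM in control, 160.1, 153, 159.5 and 148 in CKD and 157, 138, 117 and 126 with colchicine, and rose 2.72-fold in CKD (log2 1.44 ± 0.111, adjusted p = 1.57e-08). Fzd2 was at 4.84, 4.58, 5.07 and 4.58 CPM in control, 14.8, 14.6, 12.7 and 14.2 in CKD and 16.2, 17.8, 18.7 and 14.4 with colchicine, and rose 2.95-fold. Fzd3, known for its role in planar polarity, was at 4.95, 3.31, 5.00 and 4.99 CPM in control, 7.77, 8.66, 10.1 and 8.996 in CKD and 10.9, 8.90, 8.58 and 8.21 with colchicine, and rose 1.96-fold. In these 3 receptors each CKD library lay above each control library.

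The other receptors that rose did so by less or were scarce. Fzd6 was at 21.0, 18.6, 21.98 and 21.4 CPM in control, 30.6, 25.4, 24.7 and 24.9 in CKD and 32.3, 28.7, 27.4 and 22.5 with colchicine, and rose 1.27-fold in CKD. Fzd7 was at 18.9, 16.7, 16.4 and 18.6 CPM in control, 20.3, 20.1, 20.3 and 21.6 in CKD and 19.2, 16.0, 19.2 and 16.7 with colchicine. Its rise of 1.17-fold in CKD (adjusted p = 0.0311) was lost without control replicates 2 or 3, CKD replicates 1, 3 or 4, or colchicine replicate 4, with adjusted p up to 0.0934. Fzd10 was at 0.0583, 0.306, 0.205 and 0.232 CPM in control, 0.563, 0.570, 0.268 and 0.759 in CKD and 0.462, 0.659, 0.846 and 0.487 with colchicine. The CKD and control libraries of Fzd10 overlapped, and its call (log2 1.39 ± 0.479, adjusted p = 0.0180) was lost without control replicate 1 (0.0577) or without CKD replicate 4 (0.0570). The co-receptor Ror2, a receptor tyrosine kinase of the beta-catenin-independent branch, was at 3.61, 1.32, 1.57 and 2.20 CPM in control, 7.03, 5.88, 5.80 and 5.52 in CKD and 7.74, 8.45, 7.27 and 7.83 with colchicine. It rose 2.78-fold in CKD (adjusted p = 3.51e-05).

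Fzd5 was the receptor that fell, from 17.1, 18.6, 22.05 and 20.6 CPM in control to 14.3, 16.0, 16.0 and 15.6 in CKD, with 15.9, 9.84, 12.2 and 12.8 with colchicine. The log2 change in CKD was -0.34 ± 0.126 (adjusted p = 0.0268), and 0.67 with library totals only. The call was lost without control replicate 3 (adjusted p = 0.0881), without control replicate 4 (0.0656) or without CKD replicate 1 (0.0738), and with upper-quartile scaling (0.134). Fzd4, the receptor for norrin in vessels, was at 79.6, 72.8, 85.4 and 94.1 CPM in control, 79.0, 78.3, 83.8 and 65.8 in CKD and 73.4, 66.6, 61.9 and 66.4 with colchicine, with no call in CKD (log2 -0.11 ± 0.0924, 0.02 with upper-quartile scaling and 0.90 with library totals). Fzd8 lay between 11.2 and 13.9 CPM in every library and was not called in any comparison under TMM. With library totals only, it was called higher than control in CKD (log2 0.91, adjusted p = 3.82e-08) and with colchicine (0.98, 1.37e-08).

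All 8 antagonists tested were called in CKD under TMM, 6 higher and 2 lower, where 67.4% of all genes were called. With library totals only, neither of the 2 lower ones, Sfrp2 and Wif1, was called. Sfrp5 was at 0.233, 0.458, 0.274 and 0.348 CPM in control, 6.72, 8.83, 7.26 and 9.35 in CKD and 5.79, 5.23, 10.3 and 6.99 with colchicine, and rose 23.8-fold in CKD (log2 4.57 ± 0.295, adjusted p = 2.20e-09). Sfrp1 was at 95.6, 86.2, 78.5 and 90.0 CPM in control, 226, 179, 235 and 181 in CKD and 197, 208, 192 and 211 with colchicine, and rose 2.34-fold. Frzb, also known as Sfrp3, was at 36.9, 40.8, 40.8 and 43.5 CPM in control, 92.0, 66.8, 87.3 and 69.0 in CKD and 108, 109, 72.0 and 82.8 with colchicine, and rose 1.94-fold. These 3 ligand-binding proteins were higher in every library of both adenine groups than in any control library. Sfrp4 was at 6.94, 5.65, 5.55 and 4.75 CPM in control, 10.2, 8.37, 10.9 and 7.86 in CKD and 6.87, 4.97, 7.90 and 8.94 with colchicine, and rose 1.63-fold in CKD (adjusted p = 0.00290), with the colchicine libraries overlapping control.

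Sfrp2 and Wif1 went the other way. Sfrp2 was at 17.2, 17.5, 16.5 and 15.5 CPM in control and 7.14, 9.15, 9.26 and 8.91 in CKD, a decrease of 1.93 times (log2 -0.95 ± 0.168, adjusted p = 1.35e-04, and 0.06 with library totals only). Wif1, the Wnt inhibitory factor, was at 1.11, 2.09, 1.51 and 1.45 CPM in control, 0.246, 0.784, 1.16 and 0.789 in CKD and 0.435, 0.824, 1.21 and 0.974 with colchicine. Its groups overlapped, and the call in CKD (log2 -1.04 ± 0.410, adjusted p = 0.0359) was lost without control replicates 2, 3 or 4 or CKD replicates 1, 2 or 4, with adjusted p up to 0.116, and with upper-quartile scaling (0.0693) or library totals (log2 -0.04).

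In the Dickkopf family, Dkk3 rose most. This family member is secreted like the others but is not established as a ligand of the Lrp co-receptors. It was at 21.0, 16.4, 14.9 and 19.5 CPM in control, 132, 136, 125 and 124 in CKD and 90.9, 143, 140.1 and 94.7 with colchicine, 7.20-fold higher in CKD (log2 2.85 ± 0.159, adjusted p = 7.58e-10). Dkk2, which binds Lrp co-receptors, was at 46.3, 36.1, 36.4 and 40.9 CPM in control and 62.8, 57.3, 59.5 and 51.0 in CKD, a rise of 1.44-fold (adjusted p = 0.00139).

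The readout genes and the factors that set receptor turnover differed in direction. Axin2 was at 5.60, 3.62, 4.72 and 4.06 CPM in control, 19.3, 17.7, 15.5 and 18.02 in CKD and 21.7, 26.8, 25.3 and 16.2 with colchicine, and rose 3.93-fold in CKD (log2 1.97 ± 0.167, adjusted p = 5.03e-08). Lef1, a nuclear partner of beta-catenin that T cells also express, was at 1.46, 1.68, 1.78 and 1.33 CPM in control, 4.78, 3.95, 3.48 and 3.15 in CKD and 5.81, 4.85, 3.69 and 3.93 with colchicine, and rose 2.45-fold (adjusted p = 4.33e-05). The 5 measured T cell markers summed to 4.41 to 5.91 CPM in control, 19.6 to 29.4 in CKD and 12.5 to 17.2 with colchicine, and all 5 were called higher in CKD. Their part in the level of Lef1 was not tested.

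Lgr4, a receptor for R-spondins that protects Frizzled receptors from removal, was at 127, 128, 133 and 161 CPM in control, 79.3, 80.0, 92.6 and 86.8 in CKD and 74.5, 55.0, 57.8 and 61.5 with colchicine. Under TMM it was 1.62 times lower in CKD (log2 -0.70 ± 0.103, adjusted p = 2.23e-05), and no library of either adenine group reached the control range. With library totals only, Lgr4 was instead called higher in CKD (log2 0.31, adjusted p = 0.0156). The ubiquitin ligases that remove Frizzled receptors were not called in CKD: Rnf43 had a log2 fold change of 0.34 and Znrf3 of -0.02, which was 0.12 with upper-quartile scaling and 0.99 with library totals. Rnf43 was called higher with the 8 compared libraries alone (adjusted p = 0.0317), upper-quartile scaling (0.0406) and library totals (1.52e-05). Rnf43 lay between 5.60 and 10.9 CPM and Znrf3 between 10.2 and 14.8 CPM across the 12 libraries. Lgr5, a relative of Lgr4 known as a stem cell marker, stayed between 0.292 and 0.906 CPM and was not called (-0.16, and 0.84 with library totals).

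**Figure D4:**
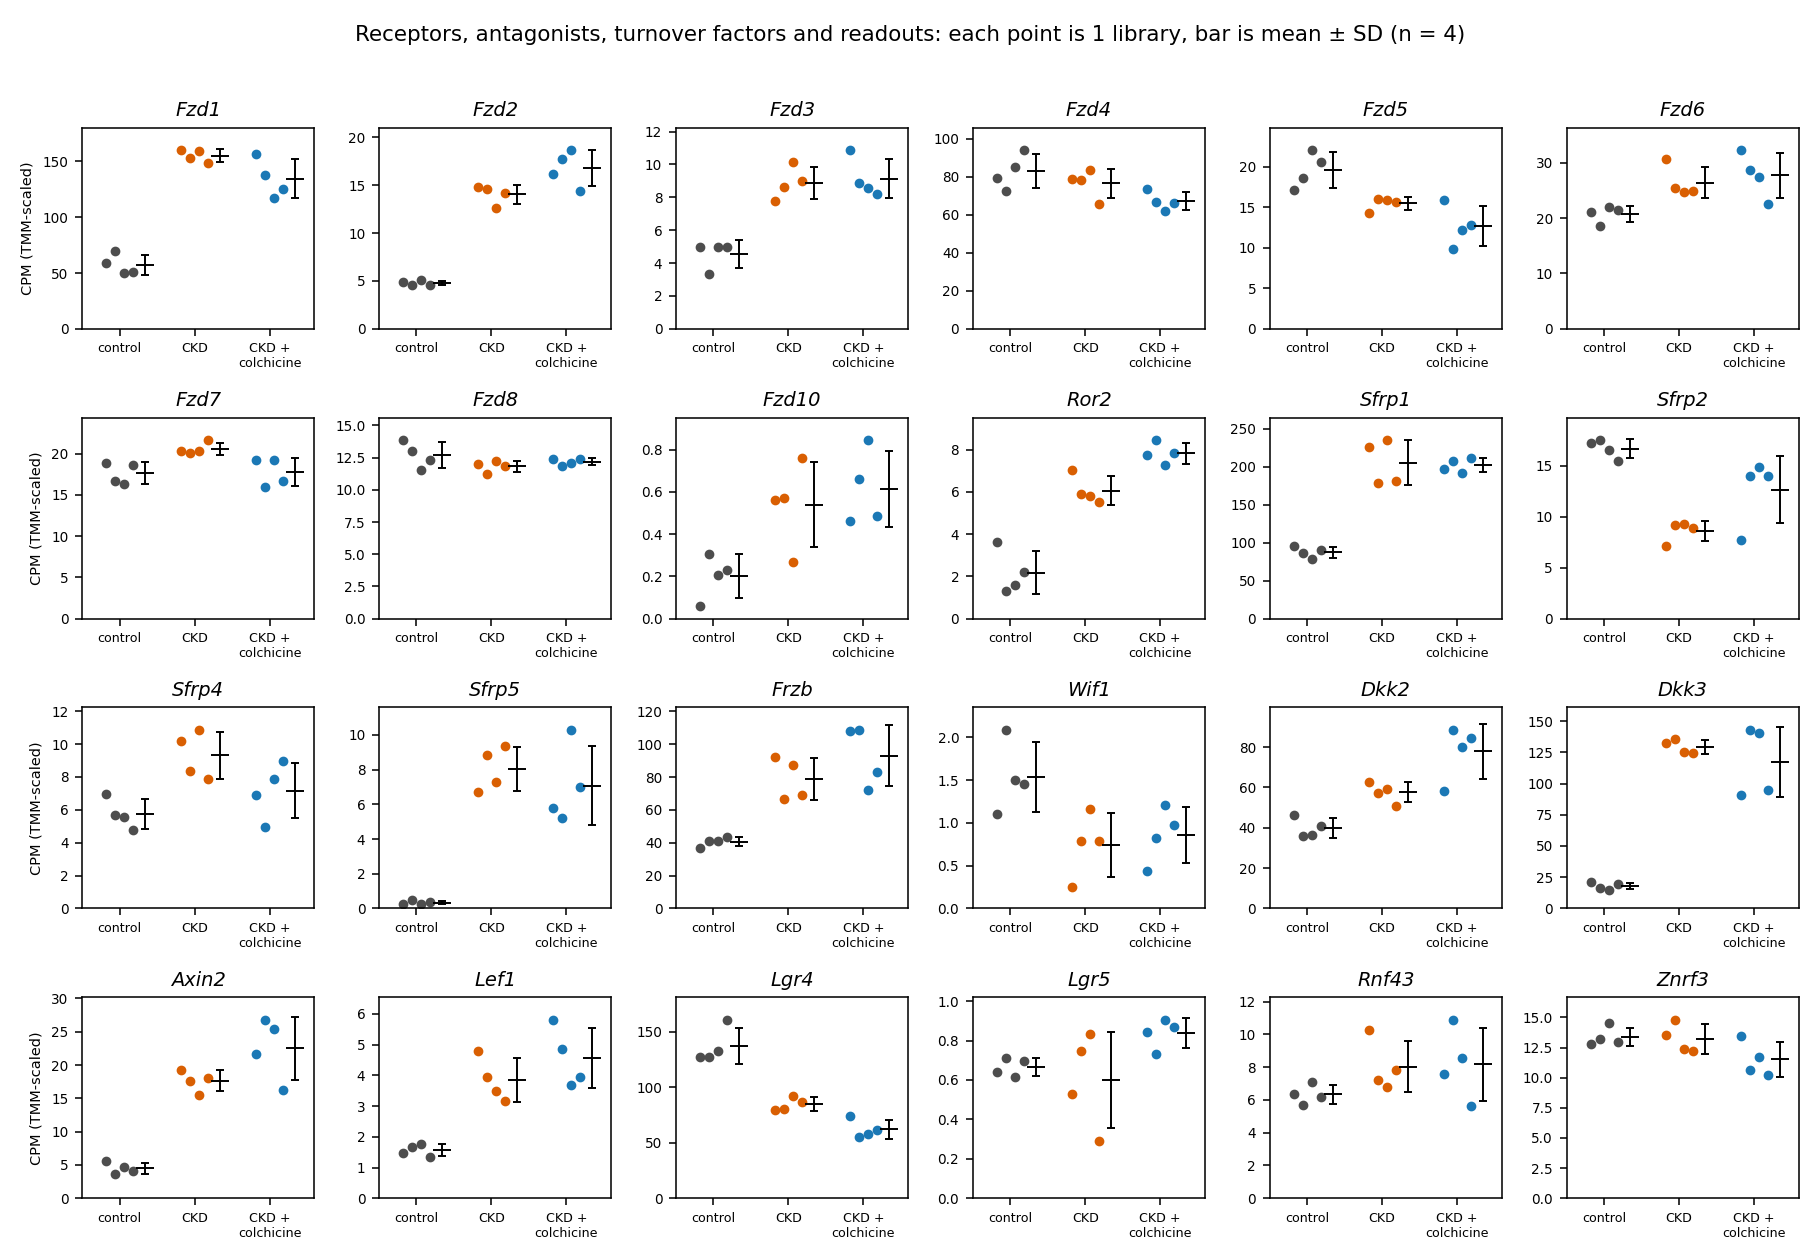
Level of the 24 tested receptors, antagonists, readouts and turnover factors (vertical axis, TMM-scaled CPM, a scale per panel) in control, CKD and CKD with colchicine (horizontal axis), with 1 point per library and the mean ± SD beside it. Axin2 is higher and Lgr4 lower in every library of both adenine groups than in any control library on this scale (with library totals only, Lgr4 is at 0.31 in CKD against control on the log2 scale), and Sfrp2 with colchicine has 1 library, at 7.74 CPM, within the CKD range.

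Colchicine was compared with CKD to ask what the drug changed on the adenine background. Here 7 members were called higher and 1 lower, against 15.0% of all genes called, 6.79% higher and 8.24% lower. Over all genes that was 1212 higher and 1470 lower, and 1764 and 1185 with upper-quartile scaling. The 7 members were the ligands Wnt4, Wnt2, Wnt9a, Wnt11 and Wnt7b and the antagonists Sfrp2 and Dkk2, and the gene called lower was Lgr4. No Frizzled receptor, and neither Axin2 nor Lef1, was called, while 15 members had an unadjusted p under 0.05. The groups did not overlap in 5 members upward and 2 downward, against 8.92% and 9.29% of all genes. The median log2 fold change was 0.21 over the 38 members and 0.53 over the 14 ligands, against 0.03 for all genes. The count of 8 rested on few libraries: it was 1 without CKD replicate 3, 2 without CKD replicate 2, CKD replicate 4 or colchicine replicate 2, 3 without colchicine replicate 3 and 4 without CKD replicate 1. It was 5 without control replicate 1, 2 or 4, and 14 (8 higher and 6 lower) without colchicine replicate 1. With a slope on the labelled adenine percentage, read at 2%, it was 3, all higher: Wnt4, Wnt7a and Wnt7b.

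Wnt4 had the largest difference of all members. Its colchicine libraries were at 60.4, 91.7, 86.4 and 75.9 CPM, against 26.9 to 34.2 in CKD and 10.03 to 17.3 in control, so the 3 groups were fully separated. The rise over CKD was 2.49-fold (log2 1.32 ± 0.153, adjusted p = 3.01e-04). It was called in all 23 alternatives, with log2 values from 1.19 to 1.42. The lowest came from the slope on labelled adenine (1.19 ± 0.205, adjusted p = 0.00468), and the highest adjusted p on leaving out a library was 0.00211, without CKD replicate 3. Colchicine replicate 1, the library with the same labelled adenine as CKD, had the lowest Wnt4 level of its group, at 60.4 CPM. Wnt4 is also expressed in the adrenal cortex, which lies on the kidney, and the adrenal markers summed to 1.97 to 2.86 CPM in control, 4.15 to 6.40 in CKD and 4.59 to 5.29 with colchicine, with Cyp11b2 at 0 in every library. The fibroblast markers, at 3364 to 3981 CPM in CKD, were at 4174 to 5330 with colchicine, and 3 of the 10 were called higher. Of the 10, 6 had positive and 4 negative log2 differences, with a median of 0.18 and a lowest value of -0.34. The part of either cell type in the level of Wnt4 was not tested.

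**Figure D5:**
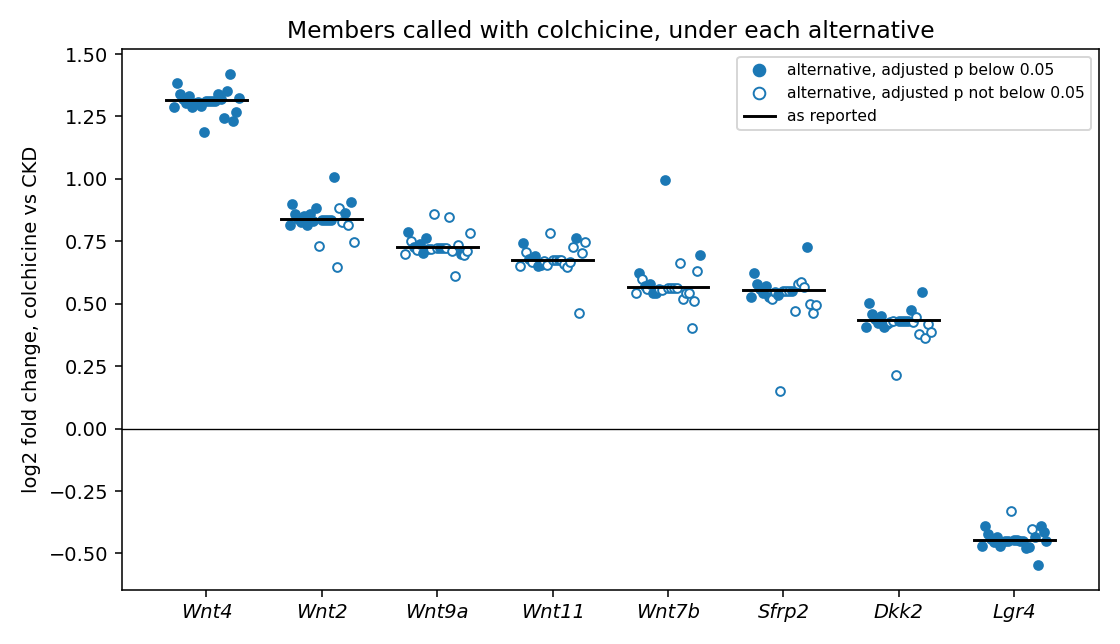
Log2 fold change of colchicine against CKD (vertical axis) for the 8 members called (horizontal axis), with a black bar for the reported value and a point for each alternative analysis, filled where the adjusted p stayed below 0.05. All Wnt4 points are filled and lie between 1.19 and 1.42, whereas each other gene has open points.

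The other ligands rose less and with weaker support. Wnt2 was 1.79-fold higher with colchicine than in CKD (log2 0.84 ± 0.222, adjusted p = 0.0233). The call was lost without CKD replicate 2 (0.0527), 3 (0.0589) or 4 (0.0578) or colchicine replicate 2 (0.0664) or 4 (0.0649), and with the slope on labelled adenine (0.175). Wnt9a, at 1.57, 1.12, 2.94 and 1.57 CPM in control, 3.24, 2.53, 1.96 and 2.66 in CKD and 4.51, 4.54, 4.43 and 3.65 with colchicine, was 1.65-fold higher (adjusted p = 0.0476). Wnt11, known from ureteric bud tips, was at 1.28, 1.27, 2.05 and 1.57 CPM in control, 1.90, 1.85, 1.93 and 2.16 in CKD and 2.55, 4.43, 2.98 and 2.57 with colchicine, and was 1.60-fold higher (adjusted p = 0.0471). Neither colchicine group overlapped its CKD group, but the Wnt9a call was lost in 14 and the Wnt11 call in 16 of 23 alternatives. Those include leaving out control replicate 1 or 4, any CKD library, or colchicine replicate 2, 3 or 4 for both genes, and control replicate 2 for Wnt11, with adjusted p up to 0.147 for Wnt9a and 0.183 for Wnt11.

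Wnt7b, a ligand of the collecting duct lineage, was at 12.2, 11.2, 17.3 and 14.7 CPM in control, 20.5, 15.4, 16.3 and 16.4 in CKD and 33.6, 28.3, 22.02 and 17.7 with colchicine. The colchicine libraries overlapped CKD, and the library with the least labelled adenine was highest. The difference from CKD was 1.48-fold (log2 0.57 ± 0.180, adjusted p = 0.0490). It lost its call in 16 of 23 alternatives, among them leaving out any 1 library other than colchicine replicate 4, with adjusted p up to 0.132. With the slope on labelled adenine it was 0.99 ± 0.156 (adjusted p = 0.00160). Wnt7a behaved in a similar way: it was not called (log2 0.71 ± 0.309, adjusted p = 0.127) except with that slope (1.30 ± 0.275, adjusted p = 0.0117), where colchicine replicate 1, at 14.3 CPM, is the library at 2%. Without that replicate the log2 value of Wnt7a was 0.21. Wnt9b, at 6.11, 9.11, 9.35 and 5.32 CPM with colchicine, was not called (0.54 ± 0.193, adjusted p = 0.0694) but was called without colchicine replicate 1 (0.63, 0.0220) or 4 (0.66, 0.0355).

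Of the antagonists, Sfrp2 was at 7.74, 14.0, 14.9 and 14.0 CPM with colchicine, between CKD and control in 3 libraries and within the CKD range in replicate 1. The difference from CKD was 1.47-fold (log2 0.55 ± 0.165, adjusted p = 0.0375). It was lost without control replicate 2 or 3, any CKD library, or colchicine replicate 2, 3 or 4 (adjusted p up to 0.108), and fell to 0.15 with the slope on labelled adenine. Dkk2 was at 58.2, 88.6, 80.3 and 84.4 CPM with colchicine, again with replicate 1 in the CKD range, and was 1.35-fold higher than CKD (log2 0.43 ± 0.120, adjusted p = 0.0283). That call was lost without CKD replicate 2, 3 or 4 or colchicine replicate 2, 3 or 4 (adjusted p up to 0.0948) and with the slope (0.22, adjusted p = 0.489). Dkk3, Frzb, Sfrp1, Sfrp4, Sfrp5 and Wif1 were not called.

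Lgr4 was 1.36 times lower with colchicine than in CKD (log2 -0.45 ± 0.103, adjusted p = 0.0126), with no overlap between the groups under TMM. Its direction in CKD against control depended on the scaling (0.31 with library totals only). The call against CKD was lost without CKD replicate 3 (0.0521) and with the slope on labelled adenine (-0.33, adjusted p = 0.182), and held in 21 of 23 alternatives. The log2 differences of the other turnover factors were 0.48 for Lgr5, 0.03 for Rnf43 and -0.20 for Znrf3. Axin2 was at 0.36 ± 0.145 (adjusted p = 0.106), and was called without colchicine replicate 4 (0.47, 0.0283). Lef1 was at 0.25 ± 0.180 (adjusted p = 0.341). The Frizzled receptors lay between -0.29 for Fzd5 and 0.26 for Fzd2. Without colchicine replicate 1, Fzd1 (-0.29), Fzd4 (-0.24), Fzd5 (-0.42), Fzd7 (-0.25) and Znrf3 (-0.28) were called lower and Fzd2 (0.27) higher, and Fzd2 was also called without colchicine replicate 4 (0.31).

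Colchicine against control shares its 4 control libraries with the comparison of CKD against control, and its 4 colchicine libraries with the comparison just given, so it is no separate support for either. It had 25 members higher and 5 lower, with 70.5% of all genes called, 37.1% higher and 33.4% lower, and a median of 1.02 over the members against 0.10 over all genes. With upper-quartile scaling the split was 28 and 2, and with library totals 35 and 0, where the median of all genes stood at 0.30 and 1.14. Over all genes 6612 were higher and 5964 lower, 8134 and 4849 with upper-quartile scaling and 13762 and 1953 with library totals. In 26 members every colchicine library lay above control and in 4 below, against 32.2% and 30.3% of all genes. Of the 14 ligands 12 were higher and 1 lower. Wnt4 was 5.45-fold higher than control (log2 2.45 ± 0.164, adjusted p = 5.26e-09), where CKD alone had been 2.19-fold higher. Wnt2 was 38.8-fold higher and Wnt7a 71.7-fold, the latter 6.93 on the log2 scale instead of 6.16 without control replicate 1. Wnt10b had a log2 value of 2.99, and 3.82 without control replicate 4. Wnt5b, at 4.31, 4.18, 3.83 and 3.94 CPM in control, 4.61, 4.42, 5.33 and 4.91 in CKD and 5.16, 7.82, 5.38 and 5.43 with colchicine, was called here at 1.46-fold (adjusted p = 0.00440). In CKD against control Wnt5b was called with upper-quartile scaling (0.38, adjusted p = 0.0469) and with library totals (1.25, 2.17e-06).

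The 5 members lower than control with colchicine were Fzd4, Fzd5, Lgr4, Sfrp2 and Wnt9b. Lgr4 had the largest decrease, at 2.21 times (log2 -1.14 ± 0.104, and -0.11 with library totals). The log2 values of the other 4 were -0.31 for Fzd4 (0.73 with library totals), -0.63 for Fzd5 (0.40), -0.40 for Sfrp2 (0.64) and -0.60 for Wnt9b (0.45). The Fzd4 call was lost with upper-quartile scaling (adjusted p = 0.234) and the slope on labelled adenine (0.119), and the Wnt9b call likewise (0.0899 and 0.109). The Sfrp2 call (adjusted p = 0.0420) was lost without control replicate 1 (0.0773), 2 (0.0851) or 3 (0.0645) or CKD replicate 4 (0.0502). It was also lost with upper-quartile scaling (0.344), a stricter low-count filter (0.0594), no such filter (0.0630) and the 8 compared libraries alone (0.0768). Among the 8 not called, Wif1 (log2 -0.83, adjusted p = 0.0756, and 0.19 with library totals) was called without CKD replicate 1 (0.0366) or colchicine replicate 3 (0.0408), Rnf43 without colchicine replicate 4 (0.0203), Sfrp4 without colchicine replicate 2 (0.0185) and Znrf3 without colchicine replicate 1 (0.0109). Wif1 was also called lower with DESeq2 (0.0493), the replicate block (0.0217) and the slope (0.0319). Rnf43 was called higher with upper-quartile scaling (0.0147) and the slope (0.0357), Sfrp4 with upper-quartile scaling (0.0208) and Fzd7 likewise (0.0359). With library totals Rnf43, Sfrp4, Fzd7, Fzd8, Lgr5 and Znrf3 were all called higher.

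The 5 companion lists place these genes in the wider pathway, and their members were counted in the same fits. Of 18 tested genes of Wnt secretion, co-receptors and membrane regulators, 7 rose and 6 fell in CKD, with a median log2 change of 0.00. The shares over all genes tested were 34.1% higher and 33.4% lower, so this list's calls were near them in both directions. Gpc3, a membrane heparan sulfate proteoglycan, rose from 18.5 to 139.7 CPM (group means, log2 2.92 ± 0.138), and its relative Gpc4 fell from 311 to 116 CPM (-1.42 ± 0.0829, and -0.41 with library totals). The pseudokinase co-receptor Ptk7 rose 5.46-fold and Tmem131l 2.32-fold. The co-receptor gene Lrp6 and the R-spondin gene Rspo3 were among the 6 that fell, with log2 changes of -0.38 and -0.87 (0.63 and 0.14 with library totals), and were named after their values were seen. With library totals 13 of the list were higher and 3 lower.

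Of 22 genes of the intracellular beta-catenin pathway, 11 rose and 4 fell in CKD (16 and 3 with upper-quartile scaling, 22 and 0 with library totals). The 15 called of 22 are a share like the 67.4% called over all genes. Nkd2, a feedback inhibitor that binds Dishevelled, rose from 2.00 to 60.7 CPM (log2 4.94 ± 0.172), its relative Nkd1 4.83-fold, Dact3, another Dishevelled-binding protein, 3.49-fold, and the kinase gene Csnk1e 2.55-fold. Of 14 TCF factors and nuclear partners, 10 rose and 1 fell (13 and 0 with library totals). The transcription factor Sox9 rose from 1.59 to 63.7 CPM, Tcf7 4.83-fold and the co-repressor Tle1 2.08-fold, and Tle5 fell 2.42 times (log2 -1.27, and -0.26 and not called with library totals). Of 18 genes of the planar polarity and non-canonical branch, 10 rose and 3 fell (14 and 2 with upper-quartile scaling, 18 and 0 with library totals). The counts of the last pair of lists stand beside the same 34.1% higher and 33.4% lower over all genes. Nfatc4 rose 5.79-fold, Prickle1 2.82-fold, Vangl2 3.05-fold and Camk2d 1.64-fold.

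Of 24 genes reported as beta-catenin targets, 16 rose and 5 fell in CKD (19 and 4 with library totals), against 34.1% higher and 33.4% lower over all genes, with a median of 1.92 against 0.04. Across the 5 lists, 6 genes stand in more than 1, and a list chosen with results of these samples known is not independent evidence of a direction. Mmp7, a matrix metalloprotease, rose from 0.0780 to 102 CPM, Cd44, a hyaluronan receptor, from 2.40 to 86.0, and Fn1, fibronectin, from 34.9 to 698. The 5 that fell were Notum (log2 -2.75), a secreted enzyme that removes the lipid from Wnt ligands, Sp5 (-2.04), Lgr6 (-1.79), Vegfa (-1.27) and Ccnd1 (-0.90, and 0.11 with library totals), named after their values were seen. Genes of the list thus moved in both directions.

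With colchicine against CKD, the 5 lists held 2, 2, 3, 3 and 2 genes called higher and 5, 1, 0, 0 and 0 called lower, of 18, 22, 14, 24 and 18 tested, in the order secretion, intracellular pathway, nuclear partners, targets and planar polarity. Over all genes 6.79% were called higher and 8.24% lower. Gpc3 fell by 0.65 (SE 0.125, adjusted p = 0.00588). Birc5, the mitotic gene for survivin, had a log2 difference of 0.75 ± 0.153 (adjusted p = 0.00709) and Nfatc4 of 0.61 ± 0.123 (0.00709). These 3 kept their call in every alternative. The other 7 genes of the naming rule lost it in at least 1: Sostdc1 (-0.42), Amer1 (0.48), Apc (-0.30), Bcl9 (0.45), Tcf7l1 (0.43), Tnfrsf19 (0.69) and Celsr2 (0.24). The secretion gene Wls, which carries Wnt ligands to the surface, was at -0.31 (adjusted p = 0.0311) and Lrp6 at -0.26 (0.0394), both named after their values were seen. Over the libraries left out in turn, the counts called higher ranged from 0 to 4, 0 to 5, 0 to 7, 1 to 5 and 1 to 3 in the same order. The counts called lower ranged from 1 to 5 for secretion, 0 to 4 for the intracellular pathway and 0 to 1 for nuclear partners. They stayed at 0 for targets and ranged from 0 to 6 for planar polarity. With the slope on labelled adenine the secretion list had 0 genes called higher and 1 lower.

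Sums by role set the groups side by side. Ligands summed to 67.4 to 82.9 CPM in control, 110.3 to 134 in CKD and 169 to 216 with colchicine. Ligand-binding antagonists summed to 143 to 158, 273 to 351 and 298 to 341, and the Dickkopf genes to 51.6 to 67.3, 175 to 195 and 149 to 232. The sum of the 4 receptor turnover factors is mostly Lgr4, at 137 CPM in control, the 1 of them called lower in CKD. That sum was 147 to 181, 103 to 113 and 77.3 to 96.3 CPM, but as CPM of the library total, with no scaling factor, they summed to 86.1 to 116 in control, 130.0 to 138 in CKD and 94.2 to 124 with colchicine. The ligand sums of the 3 groups did not overlap on either scale, while the sums of antagonists and of Dickkopf genes with colchicine overlapped those of CKD. The ligand sums include Wnt4, at 10.03 to 17.3 CPM in control, 26.9 to 34.2 in CKD and 60.4 to 91.7 with colchicine. With Wnt4 left out, the ligand sums of CKD and colchicine overlapped.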

How the data were processed

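Bulk RNA-seq of kidney tissue was analysed in 12 libraries, 4 per group. RNA was taken with RNAiso Plus and libraries were made with the CORALL V2 kit, per the labels' protocols. Reads were handled with fastp, STAR and Salmon against GRCm39, per the submitters' processing notes. The sources used here give no version, annotation, strand setting or use of molecular identifiers. The deposited values are estimated counts per gene symbol, which the authors rounded to whole numbers, and the 28 values of 1000000 or more are all multiples of 10. Library totals were 22613647 to 31662883 counts in control, 22200909 to 27399569 in CKD and 23872093 to 38253100 with colchicine, and limit the precision of genes with few counts.

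The counts were scaled by TMM, filtered with filterByExpr (minimum count 10) and tested with edgeR 4.0.16 (robust quasi-likelihood F test, 3 group means over all 12 libraries, Benjamini-Hochberg adjusted p below 0.05 over 17841 genes). All adjusted p-values are from that test unless another tool is named. Intervals and floors cover counting error only. Levels are scaled CPM with mean ± SD. Exon lengths were from GENCODE M21 and promoters from RefSeq, both of GRCm38. The share of mitochondrial transcripts differed between control and each adenine group by an exact permutation test (two-sided p = 0.0286 for both, the smallest 4 against 4 allows), and p was 0.714 between the adenine groups. Alternatives were other scalings (RLE, upper-quartile, library totals only), other filters, DESeq2 1.42.0, limma-voom (limma 3.58.1), the 8 compared libraries alone, a replicate block, a slope on labelled adenine, mitochondrial transcripts left out, and each library left out in turn. Members and gene lists were chosen with earlier results of these data known. Every member called in any comparison was described by library. From each companion list the 4 genes of lowest p in CKD against control and the 2 of lowest p in colchicine against CKD were named.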

Additional observations from a re-analysis of the deposited data

Results flagged for a closer look

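In each of 114 groups of 4 libraries (38 members in 3 groups), the highest and lowest library were compared with the rest by Dixon's ratio at its 95% critical value, which chance exceeds in about 1 group in 20, and 10 libraries stood apart. Sfrp2 was at 7.74 CPM in colchicine replicate 1, against 14.0 to 14.9 in the other 3, and at 7.14 in CKD replicate 1, against 8.91 to 9.26. Wnt7a was at 14.3 CPM in colchicine replicate 1, against 5.25 to 5.56, and at 0.233 in control replicate 1, against 0.0509 to 0.0685. Wnt5b was at 7.82 CPM in colchicine replicate 2, against 5.16 to 5.43, and Wnt9a at 3.65 in colchicine replicate 4, against 4.43 to 4.54. Fzd6 was at 30.6 CPM in CKD replicate 1, against 24.7 to 25.4, and Fzd7 at 21.6 in CKD replicate 4, against 20.1 to 20.3. Fzd3 was at 3.31 CPM in control replicate 2, against 4.95 to 5.00, and Wnt8b at 0.536 in CKD replicate 3, against 0.146 to 0.178.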

How the results depend on the processing

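Wnt4 kept its direction and call under every alternative in all 3 comparisons. In colchicine against CKD the other 7 members called each lost the call under some alternatives. The cause of the changes was not tested. Members called in colchicine against CKD (8 as reported, 7 higher and 1 lower) numbered 5 (4 higher) with RLE scaling, with library totals only and with no low-count filter, 4 (3 higher) with the 8 compared libraries alone, 3 (3 higher, 0 lower) with the slope on labelled adenine, and 10 with DESeq2 (8 higher, 2 lower), which gave no adjusted p for 4 members. Members called lower numbered 3 with upper-quartile scaling and 0 with library totals in CKD against control (5 as reported), and 2 and 0 in colchicine against control (5 as reported). With 1 library left out at a time, the calls ranged from 25 to 28 (21 to 23 higher, 3 to 5 lower) in CKD against control, 1 to 14 (1 to 8 higher, 0 to 6 lower) in colchicine against CKD and 29 to 31 in colchicine against control.

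Same-numbered libraries showed no common deviation (correlations of -0.28 to -0.0027 between CKD and control, -0.12 to 0.19 between colchicine and CKD and -0.22 to 0.073 between colchicine and control). Most libraries correlated best with a library of another number. These values give no sign that the numbers pair the libraries, but so few libraries cannot exclude a pairing. With a replicate block the calls numbered 28 in CKD against control, 4 (3 higher) in colchicine against CKD and 31 in colchicine against control.

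With library totals only, these log2 values changed sign. In CKD against control they were 0.90 for Fzd4, 0.67 for Fzd5, 0.91 for Fzd8, 0.31 for Lgr4, 0.84 for Lgr5, 0.060 for Sfrp2, 0.48 for Wnt8b and 0.99 for Znrf3. In colchicine against control they were 0.73 for Fzd4, 0.40 for Fzd5, 0.98 for Fzd8, 0.64 for Sfrp2, 0.19 for Wif1, 0.27 for Wnt8b, 0.45 for Wnt9b and 0.82 for Znrf3, and in colchicine against CKD 0.00087 for Sfrp1. The other changes of sign were in members not called as reported. With upper-quartile scaling they were Fzd4 (0.024), Fzd8 (0.029) and Znrf3 (0.12) in CKD against control, Sfrp1 (0.039) in colchicine against CKD and Fzd8 (0.13) in colchicine against control. Fzd7 in colchicine against control was -0.013 with RLE scaling and -0.013 with DESeq2. Znrf3 in CKD against control was 0.038 with no low-count filter and 0.0010 with the 8 compared libraries alone. With the slope, Wif1 was -0.44 and Wnt16 -0.23 in colchicine against CKD. With 1 library left out, the ranges that crossed 0 were -0.077 to 0.021 for Znrf3 and -0.37 to 0.079 for Lgr5 in CKD against control, and -0.030 to 0.059 for Fzd7 in colchicine against control. In colchicine against CKD they were -0.056 to 0.11 for Fzd3, -0.011 to 0.15 for Fzd6, -0.032 to 0.42 for Fzd10, -0.086 to 0.047 for Sfrp1, -0.082 to 0.50 for Wif1, -0.14 to 0.17 for Rnf43, -0.035 to 0.21 for Wnt10a, -0.19 to 0.13 for Wnt10b and -0.59 to 0.39 for Wnt8b. Depth limits the 9 untested members and the folds of Wnt6, Wnt7a, Wnt10b and Wnt16, whose control groups held 5 to 9 counts.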
